A study of Mus musculus with 3 samples.

Results

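The glucocorticoid receptor (GR) sites around Fos, Jdp2 and Batf, neighbouring genes for members of the AP-1 transcription factor family, were examined in macrophages grown from mouse bone marrow. Members were all listed peaks with a midpoint on chromosome 12 between 86750000 and 87080000 (mouse build mm9), a window of 330 kb. They numbered 8 of 1898 listed peaks, with 6 of the 1076 peaks in wild-type cells (WT) and 2 of the 822 peaks in GRdim cells. The window was chosen by the number, spacing and height of the peaks themselves, so these numbers, spacings and heights are described and not tested.

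The assay was ChIP-seq (sequencing of DNA pulled down with crosslinked protein) with an antibody against GR, and each genotype has 1 library. The WT library came from GR+/+ mice and the GRdim library from littermates that carry a point mutation in the part of the receptor through which 2 GR molecules contact each other on DNA. All mice were 12 weeks old and had been crossed to BALB/c for 4 generations or more. Cells of the study were given the GR ligand dexamethasone (1 µM, overnight), the bacterial endotoxin LPS (100 ng/ml, 3 hours) or both, and which of these the ChIP libraries received is not in the labels. How many animals went into a library is not stated. The spread between animals is therefore unknown, and each difference below is one between 2 libraries. The sex of the animals is not among the labels used here, and an effect of sex was not separated from one of genotype. An input library is described and was not analysed here. Peak lists do not allow the labelled cell type to be checked against marker genes.

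AP-1 factors are dimers of basic leucine zipper proteins that bind short DNA elements in genes of inflammation, growth and differentiation. Fos pairs with Jun proteins and is induced within minutes by many stimuli, LPS among them. Jdp2 (Jun dimerization protein) also pairs with Jun proteins and mostly represses AP-1 targets, and Batf lacks a transactivation domain and acts with Jun and IRF proteins in immune cells. GR meets AP-1 in more than one way: liganded GR binds DNA as a dimer at palindromic elements, binds single elements as a monomer, and can associate with AP-1 proteins already on DNA.

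A peak's height is the authors' own value, taken here as reads at the peak per 1000000 reads of the library (RPM). Heights rise in even steps, read here as single reads, which implies about 14800000 reads in WT and 15200000 in GRdim. The lists begin at 1.01 RPM (15 reads) in WT and 1.05 RPM (16 reads) in GRdim, and their medians are 1.22 and 1.25 RPM. A site below that floor is missing from a list, so absence is written as "not listed". A height is an average over all cells of a culture, and binding in fewer cells cannot be told apart from weaker binding in each cell. Intervals after a height are 95% exact Poisson intervals of its reads and cover counting error only.

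The gene positions used were rounded mm9 values, near 86815000 for Fos, 86940000 for Jdp2 and 87028000 for Batf, so distances are given in whole kb and no peak is assigned to an exon, intron or UTR. The genes lie 125 and 88 kb apart in that order, all 3 are transcribed towards higher coordinates, and no other protein-coding gene lies between them in the RefSeq table (GRCm38.p6, used for gene order and strand only). The nearest protein-coding neighbours are Tmed10 on the Fos side and Flvcr2 on the Batf side. Between Fos and Jdp2 that table holds the lncRNA genes Gm32296 and Gm32348.

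Most listed WT peaks of this stretch lay nearer to Fos than to Jdp2 or Batf. In WT, 5 of the 6 peaks had Fos as the nearest of the 3 genes and 1 had Batf. In GRdim, 1 of the 2 peaks was nearest to Fos and 1 to Batf. Jdp2 was the nearest gene to no listed peak: the closest WT peak lay 66 kb from it and the closest GRdim peak 112 kb. Counted within 25 kb of a gene, Fos had 2 WT peaks and 1 GRdim peak, Batf had 1 of each and Jdp2 had none.

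**Figure D1:**
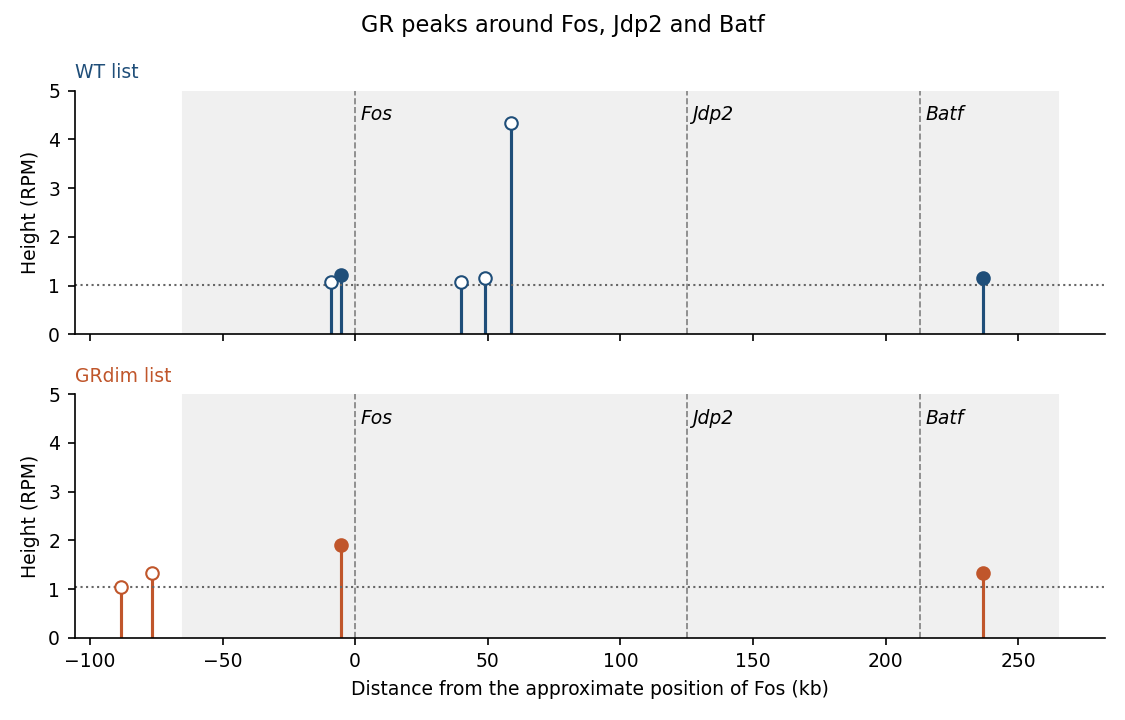
GR peaks in the WT list (top) and the GRdim list (bottom), by distance from the approximate position of Fos in kb (x) and by height in RPM (y). Filled circles are sites in both lists, open circles sites in 1 list, dashed lines the 3 genes, dotted lines the lowest listed height, and grey the window; the 2 GRdim peaks left of the grey area lie outside it, and the WT peak of 4.33 RPM between Fos and Jdp2 stands alone in height.

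Both GRdim peaks lay on WT peaks. The first of these sites was 5 kb upstream of Fos, at chr12:86809703-86809902 in WT and chr12:86809706-86809905 in GRdim, with midpoints 3 bp apart. It stood at 1.22 RPM in WT (0.721 to 1.92; 18 reads) and at 1.91 RPM in GRdim (1.28 to 2.74; 29 reads). In the GRdim list 102 peaks were taller, and in the WT list 481 were. GRdim over WT was 1.57, with a counting interval (exact binomial, from the reads of these 2 libraries) of 0.843 to 3.0.

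The second was 24 kb past the Batf position, at chr12:87051632-87051831 in WT and chr12:87051624-87051823 in GRdim, with midpoints 8 bp apart. Its height was 1.15 RPM in WT (0.669 to 1.84; 17 reads) and 1.32 RPM in GRdim (0.805 to 2.04; 20 reads), a ratio of 1.15 (0.571 to 2.33). With 17 to 29 reads behind each height, both ratios are imprecise.

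Of the WT peaks in the window, 2 of 6 were also listed in GRdim, against 22.5% of all WT peaks. Of the GRdim peaks, 2 of 2 were listed in WT, against 29.4% of all GRdim peaks. With so few peaks these shares show nothing particular to the AP-1 genes. Both sites were taller in GRdim, as were 59.9% of the 242 sites in both lists, whose median log2 ratio of GRdim over WT was 0.07 (quartiles -0.16 and 0.34). The log2 ratio was 0.65 at the Fos site and 0.20 at the Batf site, and 23 of the 242 sites had a ratio as high as that at Fos or higher. Both also belonged to the lower WT heights: among the 95 shared sites under 1.3 RPM in WT, 77 (81.1%) were taller in GRdim. A site this low in WT enters the comparison only if GRdim reached its own floor of 1.05 RPM. The positions at these sites were close even for shared sites, where the median distance between midpoints was 23.5 bp: 21 of the 242 pairs lay within 3 bp and 48 within 8 bp.

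**Figure D2:**
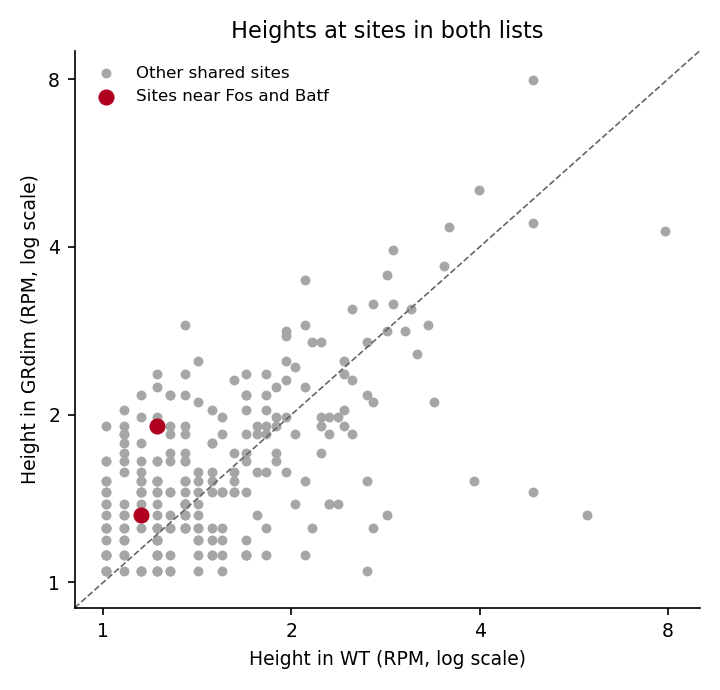
Height in WT (x) and in GRdim (y), both in RPM on log scales, at the 242 sites in both lists; the dashed line marks equal heights. The sites near Fos (1.22 and 1.91 RPM) and Batf (1.15 and 1.32 RPM), in red, lie above the line among the lower sites.

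The other 4 WT peaks were not listed in GRdim, and all 4 were nearest to Fos. The peak that stood out lay 59 kb downstream of Fos and 66 kb upstream of Jdp2, at chr12:86873584-86873783. It reached 4.33 RPM in WT (3.33 to 5.52; 64 reads), and 22 of 1076 WT peaks were taller. Heights of 4 RPM or more were reached by 2.32% of WT peaks. No GRdim peak was listed within 63.9 kb of it; the nearest was the site upstream of Fos. Its WT height was 4.12 times the lowest listed GRdim height of 1.05 RPM, and the lower end of its interval also lay above that height. If the floor alone kept the site off the GRdim list, binding there was below 1.05 RPM; whether another filter removed it is not given in the sources used here.

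A WT peak without a GRdim counterpart was common in these lists, among tall and low peaks alike. Only the WT list holds peaks on chromosome Y. Leaving that chromosome out took the WT list from 1076 to 1050 peaks, and the GRdim list stayed at 822. Peaks on chromosome Y reached 12.10 RPM in WT. Whether the WT and GRdim libraries came from animals of different sex was not tested. Chromosomes X and Y were left out of the next count. Of the 15 autosomal WT peaks at least as tall as the one between Fos and Jdp2, itself included, 10 were not listed in GRdim (66.7%, exact binomial interval 38.4 to 88.2). Among the 637 autosomal WT peaks under 1.3 RPM the share was 85.2% (82.2 to 87.9). For the 10 tall peaks not listed, the distance to the nearest GRdim peak had a median of 189 kb and ran from 0.256 to 8004 kb, against 63.9 kb here.

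The remaining 3 WT-only peaks stood near the floor. One lay 9 kb upstream of Fos at chr12:86805968-86806167, with 1.08 RPM (0.618 to 1.76; 16 reads), 3.74 kb from the GRdim peak upstream of Fos. The other 2 lay 40 and 49 kb downstream of Fos, at chr12:86854982-86855181 with 1.08 RPM (0.618 to 1.76; 16 reads) and at chr12:86863999-86864198 with 1.15 RPM (0.669 to 1.84; 17 reads). These peaks held 1 or 2 reads more than the lowest WT peak, and each interval spans the floor of the GRdim list. A difference between the genotypes at these 3 sites was not detectable at this depth. Among all WT peaks under 1.3 RPM, 14.5% (exact binomial interval 11.9 to 17.5) were also listed in GRdim, and in the window 2 of 5 such peaks were.

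**Figure D3:**
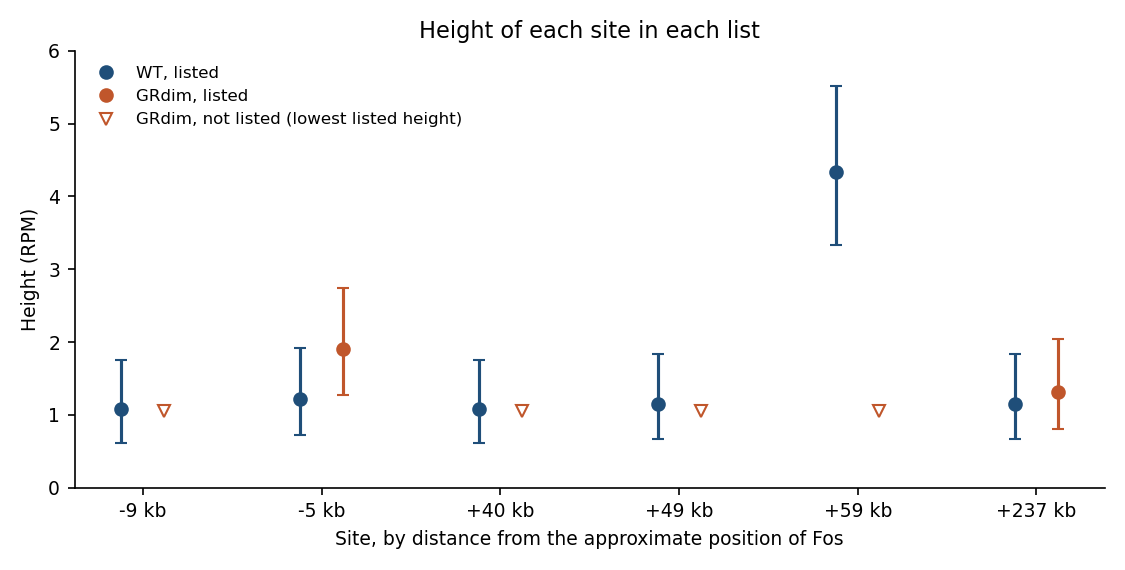
Height in RPM (y) of the 6 sites of the window, ordered by distance from Fos in kb (x), in WT (blue) and GRdim (orange), with 95% exact Poisson intervals of the reads. Open triangles mark sites not listed in GRdim, drawn at the lowest listed GRdim height of 1.05 RPM; the WT interval lies wholly above that height at the site 59 kb from Fos and at no other site.

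Summed over the window, listed height was 10.01 RPM in WT (8.46 to 11.8; 148 reads) and 3.23 RPM in GRdim (2.39 to 4.27; 49 reads). The single peak between Fos and Jdp2 gave 43.3% of the WT sum. Without it the WT sum was 5.68 RPM over 5 peaks, and the median WT height was 1.15 RPM with or without it. Heights of GRdim peaks, 1.32 and 1.91 RPM, were above those of the 5 other WT peaks, which ran from 1.08 to 1.22 RPM. At the 2 sites in both lists the counting intervals of the heights overlapped, and the rest have no listed GRdim height. The summed heights cover different numbers of peaks of 200 bp, 6 in WT and 2 in GRdim.

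The numbers depended on where the window ended. Another 2 GRdim peaks lay just outside it on the Tmed10 side, 77 and 88 kb upstream of Fos, at chr12:86738324-86738523 (1.32 RPM, 20 reads) and chr12:86726804-86727003 (1.05 RPM, 16 reads). The first was 11.6 kb from the edge, and the nearest WT peak to it was 67.6 kb away. Widening the window by 50 kb on each side left 6 WT peaks and gave 4 GRdim peaks, with summed heights of 10.01 and 5.60 RPM. The next WT peaks beyond the window were far off, 1364 kb before it (1.08 RPM) and 643 kb past it (1.01 RPM). On the Batf side the next GRdim peak lay 427 kb past the edge (1.58 RPM). Just inside the edges, the outermost WT peaks were the one 9 kb upstream of Fos, 56.1 kb from the edge, and the one at Batf, 28.3 kb from it.

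WT peaks on either side of Fos were closely spaced. The window was chosen with this known, so short gaps here beside the whole list follow from the choice. The pair upstream of Fos was 3.73 kb apart, and the 3 downstream peaks followed each other at 9.02 and 9.59 kb. A gap of 45.3 kb that holds Fos separated these groups, and 178 kb without a WT peak, which hold Jdp2 and the Batf position, led to the peak past Batf. The median of the 5 gaps was 9.59 kb, against 755 kb between neighbouring peaks of the whole WT list, where 5.69% of gaps were as short. It rested on the tallest peak, since without that peak the median was 27.1 kb. In GRdim the 2 peaks of the window stood 242 kb apart, against a median of 1186 kb in that list, where 23.8% of gaps were as short. With the window widened by 50 kb on each side the median GRdim gap was 71.4 kb.

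Each WT peak of the window had at most 5 WT peaks, itself included, in the 330 kb centred on it, and 4.46% of all WT peaks lay in surroundings at least that dense (2.29% without chromosome Y). Of all WT peaks, 56.7% had no other WT peak in such a span. The Fos window was chosen for its many WT peaks, so its density among them was fixed by that choice. Other dense stretches were picked by their WT peaks alone, and the Fos window with the peaks of both lists known. Fewer GRdim than WT peaks is therefore partly built in, for the Fos window as for the others. The number of GRdim peaks in the window of Fos, Jdp2 and Batf lay within the range of these stretches. That placement depends on how the windows were chosen and is a description only. Outside chromosome Y, 6 further windows of 330 kb held 5 to 7 WT peaks. They held 0 to 6 GRdim peaks with a median of 3, and 3 of the 6 held at most 2, as the Fos window did. A window on chromosome 16 was the most alike in both lists, with 7 WT peaks, 6 GRdim peaks and 5 sites in both. One on chromosome 2 resembled the Fos window in its numbers, with 6 WT peaks, 2 GRdim peaks and 1 site in both. No test was made between these windows.

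**Figure D4:**
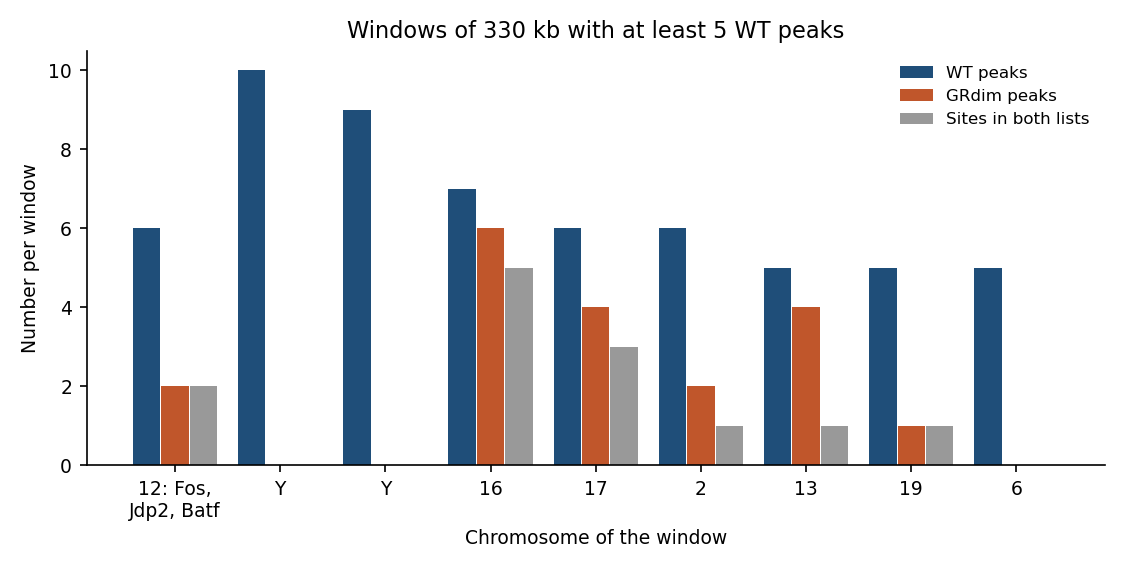
Number of WT peaks (blue), GRdim peaks (orange) and sites in both lists (grey) per window of 330 kb (y), for the window of Fos, Jdp2 and Batf and the 8 further windows with at least 5 WT peaks, named by chromosome (x). The Fos window has 6, 2 and 2; both windows on chromosome Y have no GRdim peak.

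No listed peak of either genotype fell on the start of Fos, Jdp2 or Batf: the closest lay 5 kb from the Fos position, 66 kb from Jdp2 and 24 kb from Batf. The RefSeq promoter sequences of the 3 genes (GRCm38.p6, from 250 bases before to 50 after the start; 1 for Fos, 3 for Jdp2 and 1 for Batf) were searched on both strands for letters known for GR and AP-1. None of the 5 held the GR hexamer AGAACA, which 19.0% of all 32851 promoters of the table hold, or the AP-1 site TGANTCA, which 7.81% hold. None held the CRE TGACGTCA (1.79% of promoters) or the full GR palindrome, AGAACA and TGTTCT with 3 bases of any kind between them (0.00913%); each palindrome also holds the hexamer. The absence of a match says only that these letters are not in these windows. Sequences of the peaks themselves were not analysed here, for want of a genome of build mm9.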

How the data were processed

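GR ChIP-seq peak lists of 1 WT and 1 GRdim library were used. Reads were aligned with Bowtie to mm9, per the submitters' processing notes. Not given in the sources used here are the Bowtie version, the peak caller, its thresholds and the use of input. The deposited heights were taken as RPM from the mark 1rpm in the peak names. Starts were changed from 0-based to 1-based, and every peak was 200 bp wide.

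To recover reads, a step was sought between 0.03 and 0.2 RPM of which all heights were nearest to whole multiples (0.0676 RPM in WT, 0.0659 in GRdim). Within 0.1 read, 1076 of 1076 and 822 of 822 heights were whole. No file states read numbers, so all read numbers and intervals rest on this fit. Reads carry no molecular identifiers.

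Shared sites overlap by at least 1 base. Ratios carry exact binomial intervals of the reads at both depths, and shares carry Clopper-Pearson intervals, at 95%. Dense windows started at a WT peak and were taken in order of WT peaks without overlap, outside the Fos window. All 3 genes were named by rule, and every peak of the window is given. Members, motifs and lists were chosen with earlier results of these data known. With 1 library a genotype, no test between genotypes was made, and intervals describe counting error within these libraries. A planned count of peaks at other AP-1 genes was not run, since it needs mm9 gene positions. Calculations ran in scipy 1.17.1 and numpy 2.4.6 under Python 3.11.15, and plots in matplotlib 3.10.9.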

Additional observations from a re-analysis of the deposited data

How the results depend on the processing

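Of 59 alternative values, 38 stayed within 1.5 times the reported count, share or spacing, or within the counting interval of the reported height, and 21 moved; the 8 values without the tallest WT peak were chosen after seeing the data. Several could not move, since no peaks lay within 1 kb of each other and GRdim has no peak on chromosome Y. All 6 WT peaks stayed among the 822 tallest, and GRdim was the shorter list. Leaving out a WT peak cannot change a GRdim value, and Jdp2 had no nearest peak to lose. The 38 therefore include values that were fixed in advance. WT had 6 peaks and GRdim 4 (summed height 5.60 RPM, median spacing 71.4 kb) with the window widened by 50 kb on each side, and 5 and 1 (1.91 RPM in GRdim) with it narrowed. At 1.5 RPM or more, 1 WT peak (median and summed height 4.33 RPM), 1 GRdim peak (1.91 RPM) and 0 shared sites were left; at 2 RPM or more, 1 WT peak (4.33 RPM) and 0 GRdim peaks. Without the tallest WT peak the WT sum was 5.68 RPM and the median spacing 27.1 kb. Only 2 of the 5 WT peaks nearest to Fos lay within 25 kb of it. The share of WT peaks in surroundings as dense was 2.29% without chromosome Y and 1.58% in windows of 100 kb. For GRdim it went from 10.6% to 100% in windows of 100 kb. There each GRdim peak of the Fos window stood alone, so every GRdim peak counted as at least as dense. Of all GRdim peaks, 79.3% stood alone in such windows. The 2 shared sites were the same number with a 50% reciprocal overlap or midpoints within 1 kb. No paired analysis was possible because each genotype has 1 library, and for the same reason none could be left out. Counts of other AP-1 genes were not run. Depth limits the low peaks, which rest on 16 to 20 reads.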
